A study of Mus musculus with 11 samples.

Results

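The transcripts of 9 Notch pathway genes were followed in mouse embryos: Hes1, a target of Notch signalling, Psenen, Psen2, Ncstn and Aph1a, which encode subunits of gamma-secretase, the receptors Notch1 and Notch2, the nuclear factor Rbpj and the protease Adam10. They were chosen by name from the 49585 genes of the deposited table, and all 9 were found there and passed the filter on low values. The choice was made with earlier results of these libraries in view, so the levels and differences of these 9 genes are given as a description, and no test supports them.

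All embryos were of strain C57BL/6, and they were made either by round spermatid injection (ROSI), in which an immature haploid male germ cell is placed in the egg, or by intracytoplasmic sperm injection (ICSI), in which a mature sperm is used. The 4 groups sequenced were ROSI zygotes (2 libraries), ICSI zygotes (3 libraries), ROSI 2-cell embryos (3 libraries) and ICSI 2-cell embryos (3 libraries). The ROSI embryos were activated for 1 to 2 h with 5 mM SrCl2 in a CZB medium without Ca2+ and then kept in KSOM, whereas the ICSI embryos were kept in KSOM. The type of male cell and the strontium activation therefore cannot be told apart. The labels give neither the number of embryos per library nor whether libraries came from separate cultures, so the spread between libraries may be technical.

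Notch is a receptor that is activated by ligands on neighbouring cells. After ligand binding, ADAM10 cuts the receptor outside the membrane, and gamma-secretase, a complex of a presenilin such as PSEN2, nicastrin (NCSTN), an APH1 protein and PEN-2 (encoded by Psenen), cuts it within the membrane. The freed intracellular part enters the nucleus, joins RBPJ and turns on targets such as Hes1, whose product is a repressor of transcription. In the mouse, the zygote still holds a large store of transcripts from the egg, and the embryo's own genome becomes broadly active at the 2-cell stage.

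Hes1 and Psenen stood out among the 9 genes at the 2-cell stage. In TPM, a share of a library's transcripts, Hes1 averaged 5.21 ± 1.24 (SD, n = 3) in ROSI 2-cell embryos and 16.4 ± 6.51 (SD, n = 3) in ICSI 2-cell embryos. Psenen averaged 12.9 ± 3.0 (SD, n = 3) in the former and 33.5 ± 4.12 (SD, n = 3) in the latter. For neither gene did the groups overlap at that stage, while in zygotes the ranges of both genes overlapped. At the 2-cell stage the groups did not overlap for Notch1 and Aph1a either. The share of all genes tested without overlap was not counted, so nothing is read from a lack of overlap here or below. Unlike Hes1 and Psenen, Notch1 was higher after ROSI, with 1.64 ± 0.110 TPM (SD, n = 3) in ROSI and 0.655 ± 0.172 TPM (SD, n = 3) in ICSI 2-cell embryos. Between zygote and 2-cell embryo, Psenen and Psen2 were lower and Notch2 was higher after both ROSI and ICSI.

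**Figure D1:**
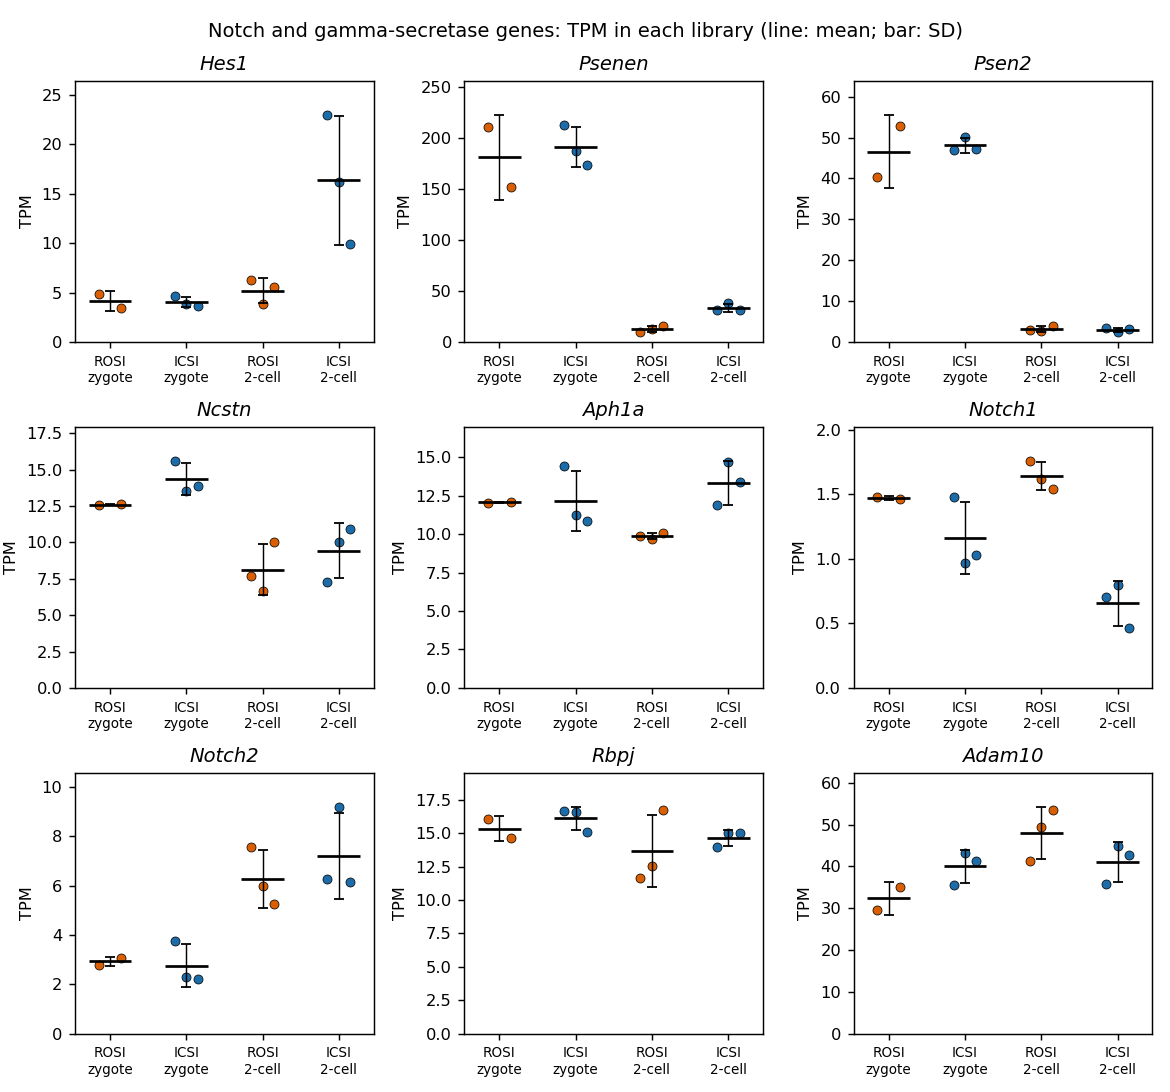
TPM of the 9 genes in each of the 11 libraries (vertical axes, each from 0) for the 4 groups (horizontal axes), with ROSI libraries in orange and ICSI libraries in blue. Each point is 1 library, the line is the group mean and the bar is 1 SD. Hes1 lies between 9.92 and 22.9 TPM in the ICSI 2-cell libraries and at or below 6.24 TPM in all others, and Psenen and Psen2 are low in all 2-cell libraries.

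TPM correct each gene for its length and are set to the same total in every library, so that levels of different genes can be compared. Reads recovered from the TPM summed to between 30.4 M and 85.9 M (M, 1e6 reads) per zygote library and between 8.48 M and 32.9 M per 2-cell library, the smallest being ICSI 2-cell library 1. The 9 genes had between 38 reads (Notch1 in that library) and 6983 reads (Psenen in ICSI zygote library 1). Differences between groups are on the scale of log2(TPM + 1), with the standard error (SE) of a limma fit over 21938 genes. A gene was called where the Benjamini-Hochberg adjusted p over these genes was under 0.05. The log2(TPM + 1) scale understates the fold of genes near 1 TPM, such as Notch1. Comparisons that share a group share its libraries, so the values below are not independent of each other. In a whole-embryo library, less RNA per cell and fewer cells that carry a transcript cannot be told apart.

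Protein-coding genes took 65.9% to 67.6% of the TPM in ROSI zygotes, 71.2% to 71.6% in ICSI zygotes and 44.6% to 51.4% in 2-cell embryos. A difference in TPM between stages, or between ROSI and ICSI zygotes, therefore also holds this change in composition. On the log2 scale, the median difference between 2-cell embryos and zygotes over the protein-coding genes tested was -0.21 after ICSI and -0.10 after ROSI. Egg and early embryo markers (9 of 9 in the table) summed to between 8742 and 9749 TPM in ROSI zygotes and 10484.5 and 12535 in ICSI zygotes. They summed to between 2454 and 3456 TPM in ROSI and 3422 and 3875 in ICSI 2-cell embryos. Spermatid markers (10 of 10 in the table) summed to between 84.2 and 162 TPM in ROSI zygotes, 24.0 and 30.1 in ICSI zygotes, 36.2 and 56.9 in ROSI 2-cell embryos and 9.58 and 14.6 in ICSI 2-cell embryos. Of these markers, Smcp was at 0 in all 6 ICSI libraries and Tnp2 in the 3 ICSI 2-cell libraries, where Ldhc gave 71.2% to 83.7% of the sum. Summed markers of cumulus and granulosa cells (10 of 10 in the table) lay between 10.5 and 15 TPM in zygotes and between 31.5 and 53.2 in 2-cell embryos, where the receptor gene Amhr2 alone gave 25.5 to 48.3. Amh, another marker of these cells, was at 0 in all zygotes. Cyp19a1, also of this list, went the other way, at 8.94 to 13.0 TPM in zygotes and 0.287 to 1.99 in 2-cell embryos. The 8 markers of somatic testis cells summed to between 280 and 322 TPM in zygotes and 31.6 and 46.9 in 2-cell embryos, of which Myh11 gave 98.4% to 99.2% in zygotes and 78.0% to 88.9% in 2-cell embryos. The part of these marker levels in the stage differences was not tested.

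Notch1, whose product is a receptor at the cell surface, had the lowest mean TPM of the 9 genes in every group. In TPM it measured 1.48 and 1.46 in the ROSI zygotes and 1.48, 0.969 and 1.03 in the ICSI zygotes. In 2-cell embryos it measured 1.76, 1.62 and 1.54 after ROSI and 0.705, 0.797 and 0.463 after ICSI. The groups did not overlap at the 2-cell stage, where every ROSI library was above every ICSI library, and they overlapped in zygotes. The ratio of mean TPM at the 2-cell stage was 2.51, and the log2 difference was 0.68 (SE 0.17). In reads, this rested on 270, 227 and 181 after ROSI and on 38, 136 and 90 after ICSI. The exact Poisson 95% intervals, which cover counting error only, were 1.33 to 1.79 TPM for the lowest ROSI library and 0.668 to 0.942 TPM for the highest ICSI library. The call of Notch1 at this stage held in 1 of the 11 fits that left out 1 library, with log2 differences from 0.59 to 0.74, and it was lost with the replicate number as a block at a log2 difference of 0.68. An annotated transcript on the opposite strand, 0610009E02Rik, shares 1068 exon bases with Notch1 and had at most 1.30 TPM. The library kit keeps the strand, but the strand setting of the counting is not given in the sources used here, so reads of such a pair may not have been separated.

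Notch2, a second receptor gene, had more TPM in 2-cell embryos than in zygotes. It measured 2.81 and 3.06 TPM in the ROSI zygotes and 3.76, 2.30 and 2.21 TPM in the ICSI zygotes. In 2-cell embryos it reached 7.55, 5.98 and 5.28 TPM after ROSI and 6.29, 9.21 and 6.14 TPM after ICSI. Every 2-cell library was above every zygote library, and ROSI and ICSI overlapped at both stages. The log2 difference between stages was 1.13 (SE 0.20) after ICSI and 0.87 (SE 0.23) after ROSI. With quantile normalization, the latter was 0.47 and no longer called. Notch3, the next receptor gene, averaged 0.115 TPM in ICSI zygotes and 0.811 TPM in ICSI 2-cell embryos. It was called higher after ICSI (log2 difference 0.70) and after ROSI (0.98), where it averaged 0.0622 and 1.12 TPM. The call after ICSI was lost with quantile normalization. Notch4 did not pass the filter on low values.

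Adam10, whose product makes the first cut in the activated receptor, had group means between 32.4 and 48.1 TPM. Its libraries measured 29.5 and 35.2 TPM in ROSI zygotes and 35.6, 43.3 and 41.3 TPM in ICSI zygotes. In 2-cell embryos they measured 41.3, 49.5 and 53.5 TPM after ROSI and 35.8, 44.9 and 42.7 TPM after ICSI. The ROSI zygotes were the lowest and did not overlap the ROSI 2-cell embryos, a log2 difference of 0.55 (SE 0.15), whereas the ICSI groups overlapped. Without ROSI zygote library 1 that difference was 0.43 and was not called. After ICSI the difference was 0.04 (SE 0.13), but it was called with quantile normalization (0.37) and with protein-coding rescaling (0.56). Adam17, which encodes a related protease, averaged 45.9 ± 1.35 TPM (SD, n = 2) in ROSI zygotes and 78.0 ± 8.39 TPM (SD, n = 3) in ROSI 2-cell embryos. Its difference was called in that pair of groups (log2 difference 0.75), and not after ICSI.

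The subunit genes of gamma-secretase described here spanned mean levels from 2.51 TPM (Aph1c) to 181 TPM (Psenen) in ROSI zygotes. Psenen encodes the smallest subunit, which is needed for the presenilin to be cut into its active form. It measured 210 and 152 TPM in the ROSI zygotes and 212, 187 and 174 TPM in the ICSI zygotes. In 2-cell embryos it measured 9.82, 13.1 and 15.8 TPM after ROSI and 31.3, 38.2 and 30.9 TPM after ICSI. Every 2-cell library was below every zygote library, and every ROSI 2-cell library was below every ICSI 2-cell library. Mean TPM was 5.71 times lower in 2-cell embryos than in zygotes after ICSI and 14 times lower after ROSI, with log2 differences of -2.48 (SE 0.18) and -3.71 (SE 0.20). Between ROSI and ICSI 2-cell embryos the log2 difference was -1.33 (SE 0.18), against -0.09 (SE 0.20) between the zygotes. The opposite-strand gene U2af1l4 shares 119 exon bases with Psenen and had at most 1.94 TPM.

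Psen2, which encodes a presenilin, the subunit that holds the catalytic site, was also low in 2-cell embryos but did not separate ROSI from ICSI. It measured 40.3 and 52.9 TPM in ROSI zygotes and 46.9, 50.2 and 47.2 TPM in ICSI zygotes. The 2-cell libraries held 3.0, 2.67 and 4.01 TPM after ROSI and 3.35, 2.48 and 3.23 TPM after ICSI. The stages did not overlap, and the log2 difference was -3.62 (SE 0.15) after ICSI and -3.49 (SE 0.17) after ROSI. Between ROSI and ICSI 2-cell embryos it was 0.07 (SE 0.15), and these groups overlapped.

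The promoter sequence of Psenen and of Psen2 is shown because these subunit genes were both many-fold lower at the 2-cell stage. Each run is 250 bases upstream of a start site, read 5′ to 3′ on the gene's strand, from RefSeq promoters of build GRCm38.p6. The window of Psenen, chr7:30563628-30563877 on the minus strand, ends at the start site at 30563627, and that of Psen2, chr1:180245951-180246200 on the minus strand, lies before the start site at 180245950, and was chosen because it holds the motif searched below. RefSeq gives another window for each gene, with a GC content of 55.6% for Psenen and 62.8% for Psen2 and no match to the motif in either. Capitals mark TTCCCAC, the reverse complement of GTGGGAA, letters that RBPJ is known to bind.
Psenen: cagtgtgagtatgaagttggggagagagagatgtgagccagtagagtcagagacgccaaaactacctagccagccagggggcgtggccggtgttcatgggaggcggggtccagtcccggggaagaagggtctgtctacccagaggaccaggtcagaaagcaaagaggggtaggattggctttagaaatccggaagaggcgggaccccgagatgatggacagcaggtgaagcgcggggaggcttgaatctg
Psen2: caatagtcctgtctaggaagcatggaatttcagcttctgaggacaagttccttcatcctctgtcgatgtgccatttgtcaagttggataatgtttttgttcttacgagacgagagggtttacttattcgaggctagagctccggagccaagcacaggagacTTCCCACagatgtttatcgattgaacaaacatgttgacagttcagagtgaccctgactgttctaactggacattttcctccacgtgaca
GTGGGAA was searched on both strands as the only motif. It was present in 1 of 11 windows of this length at 8 of the genes, the one of Psen2 printed here. Hes1 had no window, so its promoter was not searched. Of all 32851 promoter windows of 250 bases, 5.42% held the motif. The window of Psenen had a GC content of 58.4% and that of Psen2 44.8%, with a median of 52.4% over all windows. A match of these letters is a description of the sequence, not evidence of binding.

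Ncstn encodes nicastrin, the subunit that receives the substrate. It measured 12.5 and 12.6 TPM in ROSI zygotes and 15.6, 13.5 and 13.9 TPM in ICSI zygotes, and in 2-cell embryos 7.70, 6.64 and 10.05 TPM after ROSI and 7.31, 10.04 and 10.9 TPM after ICSI. All 2-cell libraries were below all zygote libraries, with log2 differences of -0.57 (SE 0.17) after ICSI and -0.59 (SE 0.19) after ROSI. With TPM rescaled to protein-coding genes, a setting chosen after the data were seen, these differences were -0.08 and -0.16, and neither was called. The call after ROSI was also lost without ROSI zygote library 1 (-0.59), ROSI zygote library 2 (-0.59) or ROSI 2-cell library 2 (-0.47). Ncstn shares 195 exon bases with Copa on the opposite strand, a gene with 16.5 to 41.7 TPM, so its values are uncertain if strands were not separated.

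Aph1a encodes a scaffold subunit, and its group means lay between 9.88 and 13.3 TPM. It measured 12.0 and 12.1 TPM in ROSI zygotes and 14.4, 11.2 and 10.9 TPM in ICSI zygotes. The 2-cell libraries held 9.87, 9.71 and 10.1 TPM after ROSI and 11.9, 14.7 and 13.4 TPM after ICSI. At the 2-cell stage every ROSI library was below every ICSI library, and the log2 difference was -0.39 (SE 0.12) and not called. It was called with median-ratio scaling (-0.46), quantile normalization (-0.50) and protein-coding rescaling (-0.37). Aph1a shares 445 exon bases with Car14 on the opposite strand, which had at most 1.66 TPM.

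Aph1b and Aph1c, paralogs of Aph1a that can take its place in the complex, averaged at most 3.39 TPM in any group and fell in both stage comparisons (limma). Aph1b averaged 2.65 ± 0.0906 TPM (SD, n = 2) in ROSI zygotes, 3.39 ± 0.637 TPM (SD, n = 3) in ICSI zygotes, 0.984 ± 0.0521 TPM (SD, n = 3) in ROSI 2-cell embryos and 1.07 ± 0.513 TPM (SD, n = 3) in ICSI 2-cell embryos. Near-identical copies can share reads, so the levels of Aph1b and Aph1c are uncertain.

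**Figure D2:**
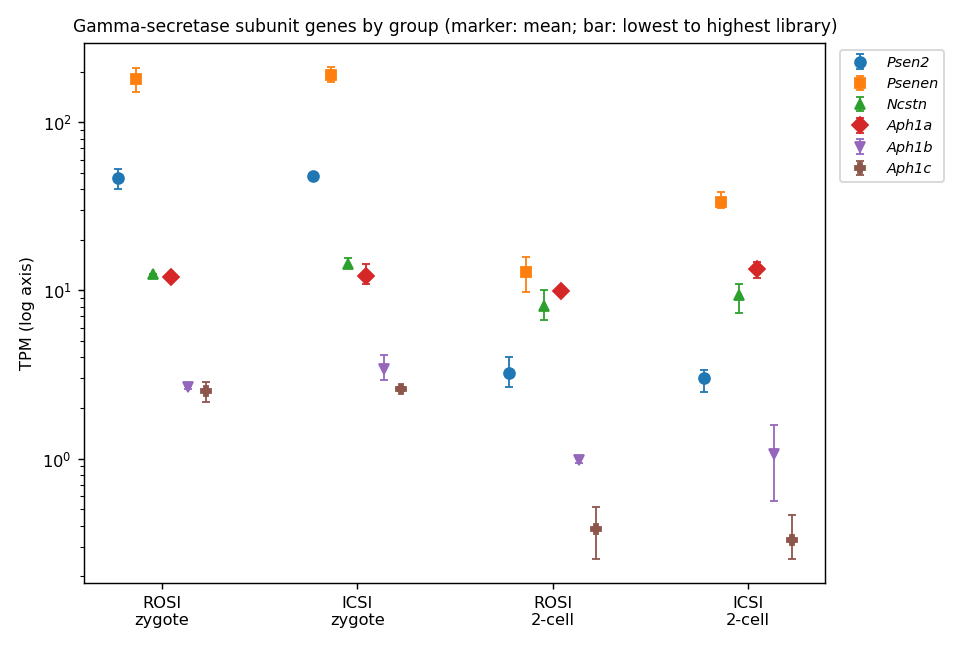
TPM on a log axis (vertical) of 6 gamma-secretase subunit genes in the 4 groups (horizontal); markers are group means and bars run from the lowest to the highest library. Psen2 and Psenen are lower in both 2-cell groups, Psenen lies higher in ICSI (33.5) than in ROSI (12.9) 2-cell embryos, and Ncstn and Aph1a stay between 6.64 and 15.6 TPM.

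Ratios within a library do not depend on its scale. The ratio of Psenen to Aph1a was between 12.5 and 17.4 in the 5 zygote libraries, 0.995, 1.35 and 1.57 in the ROSI 2-cell libraries and 2.64, 2.60 and 2.31 in the ICSI 2-cell libraries. The ROSI and ICSI 2-cell libraries did not overlap in this ratio. This ratio shows an unequal change of its pair of genes, not which of them changed.

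Rbpj encodes the DNA-binding factor on which the freed receptor acts. It measured 16.0 and 14.7 TPM in ROSI zygotes and 16.6, 16.6 and 15.1 TPM in ICSI zygotes. In 2-cell embryos it measured 11.7, 12.6 and 16.7 TPM after ROSI and 14, 15 and 15 TPM after ICSI. ROSI and ICSI overlapped at both stages, with log2 differences of -0.07 (SE 0.14) in zygotes and -0.11 (SE 0.13) in 2-cell embryos. The stage difference was -0.13 (SE 0.13) after ICSI and turned to 0.38, and was called, with TPM rescaled to protein-coding genes. After ROSI it was -0.17 (SE 0.14), and without ROSI 2-cell library 3 it was -0.32 and called.

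For Hes1, as for Notch1, the ICSI 2-cell libraries lay outside the range of all other libraries, here above it. It measured 4.84 and 3.43 TPM in ROSI zygotes and 4.68, 3.82 and 3.70 TPM in ICSI zygotes. In 2-cell embryos it measured 6.24, 3.84 and 5.54 TPM after ROSI and 22.9, 16.2 and 9.92 TPM after ICSI. The ROSI 2-cell libraries overlapped the zygotes. The ICSI 2-cell libraries also differed most among themselves. Their highest value, 22.9 TPM, came from ICSI 2-cell library 1, the shallowest library at 8.48 M reads. Their lowest, 9.92 TPM, came from library 3, the deepest 2-cell library at 32.9 M reads. The part of depth in this spread was not tested. The reads behind these values were 177, 396 and 276 in the ICSI 2-cell libraries and 137, 77 and 93 in the ROSI 2-cell libraries. The nearest of these, ICSI library 3 and ROSI library 1, had exact Poisson 95% intervals of 8.78 to 11.2 and 5.24 to 7.38 TPM. Mean TPM was 4.02 times higher in ICSI 2-cell embryos than in ICSI zygotes (log2 difference 1.71, SE 0.27) and 1.26 times higher in ROSI 2-cell embryos than in ROSI zygotes (0.27, SE 0.30). At the 2-cell stage it was 3.14 times lower after ROSI (log2 difference -1.43, SE 0.27), and in zygotes the log2 difference was 0.01 (SE 0.30).

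Leaving out 1 library at a time moved the 2-cell difference of Hes1 between -1.73 and -1.16, and it was called in all 11 such fits. For Psenen the range was -1.47 to -1.16, also called in all 11. Because both genes were chosen with this comparison in view, calls kept in these fits are a description and add no support. When only the 6 libraries of 2-cell embryos were fitted, neither gene was called, at the same differences. The ratio of Hes1 to Rbpj within a library was 0.534, 0.305 and 0.332 in ROSI and 1.64, 1.08 and 0.661 in ICSI 2-cell libraries, and 0.230 to 0.302 in zygotes. With TPM rescaled to protein-coding genes, the stage difference of Hes1 after ROSI was 0.71 and was called, and with quantile normalization it was -0.14 and was not.

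**Figure D3:**
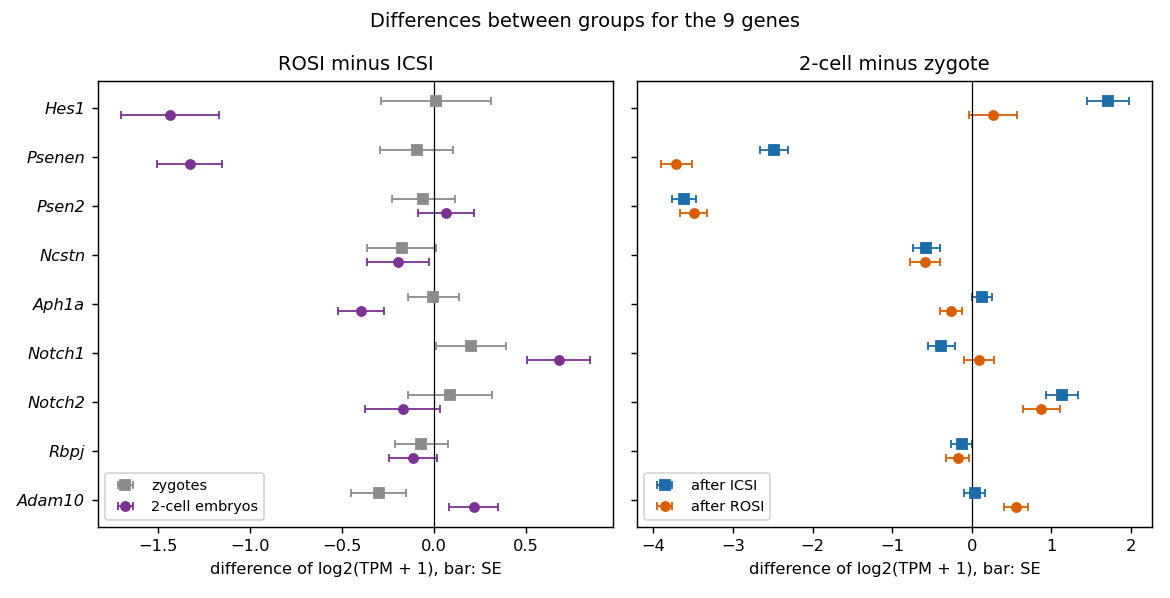
Differences of log2(TPM + 1) (horizontal axes) for the 9 genes (vertical axis), ROSI minus ICSI on the left (grey squares for zygotes, purple circles for 2-cell embryos) and 2-cell minus zygote on the right (blue squares after ICSI, orange circles after ROSI); bars are 1 SE. At the 2-cell stage Hes1 (-1.43) and Psenen (-1.33) lie lowest and Notch1 (0.68) highest, while all zygote differences lie between -0.30 and 0.20.

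Between ROSI and ICSI zygotes, 0 of the 9 genes were called by limma, and 0 had an unadjusted p under 0.05, where 0.146% of all genes tested were called. Adam10 was furthest from 0, at -0.30 (SE 0.15), and its ROSI libraries lay below all ICSI libraries. Ncstn also did not overlap, at -0.17 (SE 0.19). Over the alternatives, protein-coding rescaling among them, Adam10 ranged from -0.42 to -0.17 and Ncstn from -0.21 to -0.07, called in none. Protein-coding genes took 67.6% and 65.9% of TPM in ROSI zygotes and 71.3%, 71.2% and 71.6% in ICSI zygotes. Gm23935 alone took 14.9% and 13.3% in the former and 10.6%, 8.31% and 8.55% in the latter. The part of this composition in these differences was not tested. The zygote libraries also differed in small nuclear and nucleolar RNA, which took 0.611% and 2.58% of TPM in the ROSI zygotes and 0.572%, 1.64% and 1.64% in the ICSI zygotes. Among libraries under 1% (1 of each kind) the difference of Psenen was -0.02, and among the others (1 against 2) it was -0.25. For Hes1 these were 0.04 and -0.10. The summed spermatid markers of the ROSI zygotes, at 84.2 to 162 TPM, were above those of the ICSI zygotes, at 24.0 to 30.1. Summed egg and early embryo markers were lower in ROSI zygotes, at 8742 to 9749 TPM against 10484.5 to 12535, though Zp3, Nlrp5 and Bmp15 overlapped. The part of both marker lists in the 9 genes' levels was not tested.

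Between ROSI and ICSI 2-cell embryos, 2 of the 9 genes were called lower (Hes1 and Psenen) and 1 higher (Notch1). Over all genes tested, 4.58% were called lower and 4.93% higher, so that 51.8% of calls were higher. That split depended on scaling, at 37.2% with median-ratio scaling, 46.1% with quantile normalization and 62.5% with protein-coding rescaling, and Hes1 and Psenen were called lower under each of these. Because the genes were chosen with this comparison known, nothing is read from their count or from calls kept under other scalings. The summed level of the spermatid markers was higher in the ROSI 2-cell libraries, though not for every marker. Ldhc overlapped (8.81 to 11.6 TPM after ROSI, 7.55 to 10.7 after ICSI), as did Prm1 and Prm2. Tnp2 was at 0 in ROSI 2-cell library 3 and in all ICSI 2-cell libraries. The summed level of 7 markers of the 2-cell stage was lower after ROSI, at 325 to 450 TPM against 660 to 700. Egg and early embryo markers summed to 2454 to 3456 TPM after ROSI and 3422 to 3875 after ICSI. The part of these differences in the levels of Hes1, Psenen and Notch1 was not tested.

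From zygote to 2-cell embryo, 2 of the 9 genes were called higher after ICSI (Hes1 and Notch2) and 3 lower (Psenen, Psen2 and Ncstn), where 33.0% of all genes tested were called higher and 35.0% lower. After ROSI, 2 were called higher (Notch2 and Adam10) and the same 3 lower, where 35.6% were called higher and 32.3% lower. The median difference of the 9 genes was -0.13 after ICSI and -0.17 after ROSI, and that of all genes tested was 0.00 and 0.19. The difference between the stage changes of ROSI and ICSI, the test of whether the stage change itself differed, called 0 of the 9 genes by limma and 0.0182% of all genes. It was -1.44 (SE 0.40) for Hes1 and -1.23 (SE 0.27) for Psenen, and 3 of the 9 genes had an unadjusted p under 0.05, as did 15.1% of all genes tested. Nothing is read from that count. The value of Psenen was called with median-ratio scaling (-1.39), quantile normalization (-1.47), array weights (-1.25) and protein-coding rescaling (-1.32). The separate stage changes of Hes1, called after ICSI and not after ROSI, are therefore not shown by this fit to differ.

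The 9 genes were set beside 94 other genes of the pathway, of which 93 were in the table and 73 passed the filter. Paralogs of the 9 genes and up to 4 genes per direction and comparison with the largest difference were named by rule, and the other genes named from these lists were picked after their values were seen. Between zygote and 2-cell embryo, 25 of the 73 genes rose and 29 fell after ICSI, and 26 rose and 31 fell after ROSI. That is 34.2% and 39.7% after ICSI, beside 33.0% and 35.0% of all genes tested, and 35.6% and 42.5% after ROSI, beside 35.6% and 32.3%. In all, 52 (71.2%) passed in both comparisons, each of them in the same direction. Of all genes tested 59.5% did so, and 99.7% of those had the same direction. The median difference of the 73 genes was -0.04 after ICSI and -0.14 after ROSI, against 0.00 and 0.19 over all genes. The counts by role below are to be read beside the same shares of all genes.

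Among 6 ligand genes, 2 rose and 2 fell after both ICSI and ROSI. Jag1, which encodes a ligand on the surface of the signalling cell, fell by 2.17 after ICSI on the log2 scale (limma adjusted p 4.55e-08), from 118 ± 5.13 TPM (SD, n = 3) to 25.5 ± 2.52 TPM (SD, n = 3). Dll3, a divergent ligand, rose by 1.08 after ICSI (limma adjusted p 7.11e-05) and by 1.24 after ROSI (limma adjusted p 6.11e-05). The enzymes that put sugars on Notch had 4 of 7 genes that rose and 1 that fell after ICSI, among them Poglut1, an O-glucosyltransferase, which rose by 1.63 after ICSI and 2.08 after ROSI. The Fringe genes, whose products lengthen sugar chains on Notch, did not move as one: Lfng rose by 1.59 and Mfng fell by 2.12 after ICSI.

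Nuclear partners of RBPJ held the largest stage changes of the 73 genes. Of 6 coactivator genes, 4 rose and 1 fell after ICSI, and Kat2b, an acetyltransferase gene, rose by 2.38 after ICSI and by 3.20 after ROSI (limma adjusted p 5.20e-07 and 1.39e-07). Of 11 genes of repressor complexes, 3 rose and 6 fell after ICSI, and 3 rose and 4 fell after ROSI. Kdm5a, which encodes a histone demethylase that can act with RBPJ, averaged 1.18 ± 0.138 TPM (SD, n = 3) in ICSI zygotes and 34.9 ± 3.44 TPM (SD, n = 3) in ICSI 2-cell embryos, a rise of 4.04 (SE 0.12, limma adjusted p 9.25e-10), and it rose by 4.27 after ROSI. The deacetylase gene Hdac1 rose by 3.71 after ICSI and 3.74 after ROSI. The corepressor gene Ctbp2 fell by 3.26 after ICSI and 3.13 after ROSI, and Cir1, a corepressor that binds RBPJ, fell by 2.39 after ICSI. Of 6 Groucho family genes, whose products are corepressors recruited by HES proteins, 3 rose and 2 fell in each comparison, and Tle3 rose by 3.01 after ICSI and 3.10 after ROSI. Each of these lists held genes that rose and genes that fell.

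Of 8 other targets and relatives of Hes1 tested, 1 rose and 4 fell in each stage comparison. Nrarp, a target that dampens Notch signalling, averaged 0.605 ± 0.0854 TPM (SD, n = 3) in ICSI zygotes and 3.18 ± 0.287 TPM (SD, n = 3) in ICSI 2-cell embryos, and it also rose after ROSI, from 0.248 ± 0.0233 TPM (SD, n = 2) to 2.68 ± 0.568 TPM (SD, n = 3). Hey1, a member of the Hes and Hey family of repressors, was at 9.83 ± 1.10 TPM (SD, n = 3) in ICSI zygotes and 9.69 ± 1.55 TPM (SD, n = 3) in ICSI 2-cell embryos. Hey2 fell from 6.14 ± 0.594 to 2.33 ± 0.475 TPM (SD, n = 3 each) after ICSI. Hes6, a family member that counters HES1, averaged 10.4 TPM in ROSI and 10.9 TPM in ICSI zygotes, and 0.998 ± 0.243 TPM (SD, n = 3) in ROSI and 2.26 ± 0.323 TPM (SD, n = 3) in ICSI 2-cell embryos. Of these genes, Hes6 was the one called between ROSI and ICSI 2-cell embryos.

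**Figure D4:**
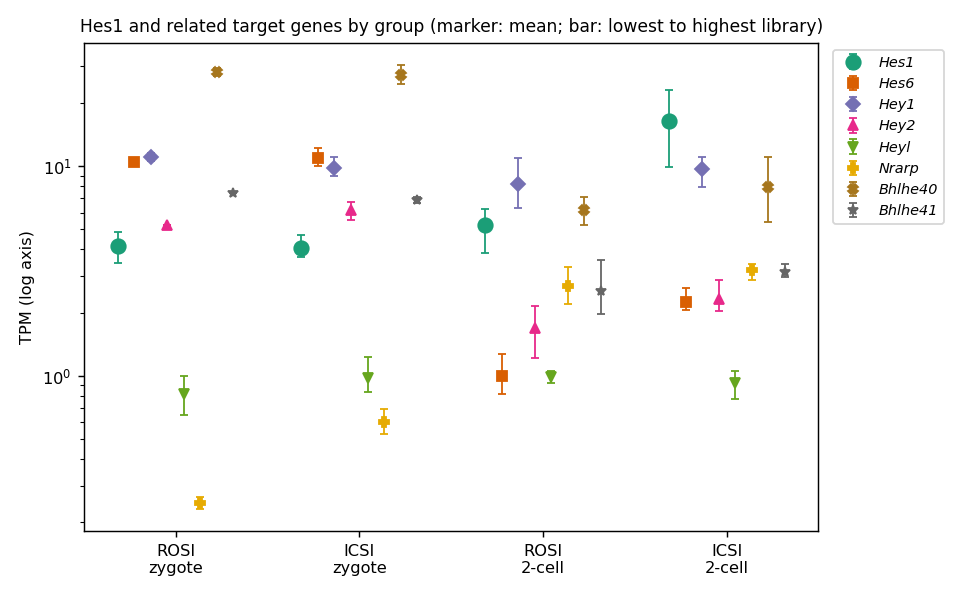
TPM on a log axis (vertical) of Hes1 and 7 other genes, Notch targets or relatives of Hes1, in the 4 groups (horizontal). Markers are group means and bars run from the lowest to the highest library. Hes1 is highest in ICSI 2-cell embryos (16.4), Hes6 and Hey2 are lower in both 2-cell groups than in zygotes, and Nrarp is higher.

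Between ROSI and ICSI 2-cell embryos, 7 of the 73 other pathway genes were called, all of them lower after ROSI. They were 9.59% of the 73, beside 4.58% of all genes called lower and 4.93% called higher. With quantile normalization the calls were 4 higher and 11 lower, and with protein-coding rescaling 5 higher and 8 lower. Among them were Dtx2, Hes6 and Epha4, and, outside the naming rule, Lrp1, Crebbp and Aes. Dtx2, which encodes a ubiquitin ligase that acts on Notch, averaged 75.7 ± 4.80 TPM (SD, n = 3) in ROSI and 127 ± 12.1 TPM (SD, n = 3) in ICSI 2-cell embryos (log2 difference -0.73, SE 0.11, limma adjusted p 0.00502). Hes6 differed by -0.71 (SE 0.14, limma adjusted p 0.0167), and Epha4, an ephrin receptor gene whose product is cut by gamma-secretase, by -0.65 (SE 0.11, limma adjusted p 0.00961). The median over the 73 genes was -0.03, against 0.04 over all genes. None of the 7 was called when the 2-cell libraries were fitted alone. Without ROSI 2-cell library 2, the adjusted p of Hes6 was 0.0536 and that of Lrp1 0.0923, and without ICSI 2-cell library 2 Lrp1 was again not called. Crebbp kept its call in 4 of 11 fits that left out 1 library. In zygotes, limma called 0 of the 73 genes, with 8 (10.96%) at an unadjusted p under 0.05, beside 6.35% of all genes. The difference between stage changes likewise called 0, with 11 (15.1%) at an unadjusted p under 0.05, beside 15.1% of all genes.

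**Figure D5:**
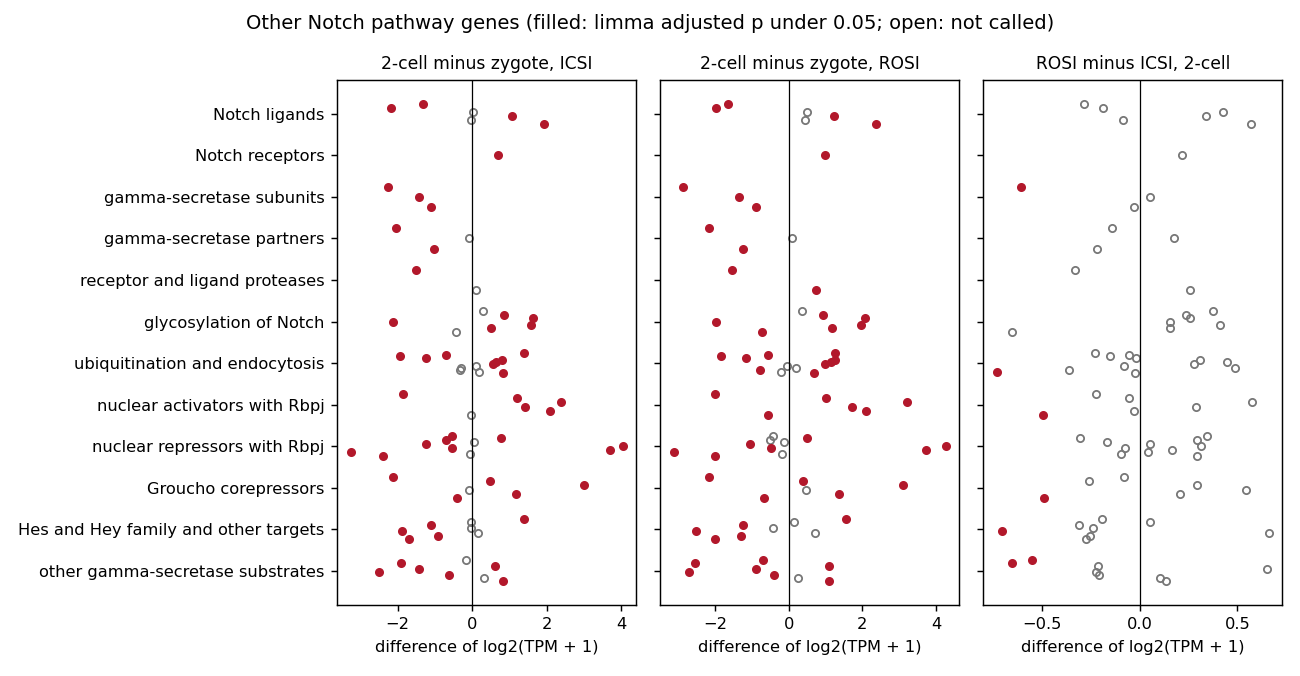
Differences of log2(TPM + 1) (horizontal axes) for the 73 other pathway genes tested, in rows by role (vertical axis), 2-cell minus zygote after ICSI and after ROSI and ROSI minus ICSI at the 2-cell stage. Each point is a gene, filled where limma called it; the stage panels hold 54 and 57 called genes on both sides of 0, and the right panel, on a narrower axis, holds 7, all below 0.

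The genes most like Hes1 over the 11 libraries, by Pearson correlation of log2(TPM + 1) among 8774 named genes averaging at least 5 TPM, were Hmbox1 (r = 0.92), Hist1h4c (0.92), Reep4 (0.91), Stxbp5 (0.91) and Tob2 (0.91). For Psenen they were Cdo1 (0.998), Il31ra (0.998), Bcar3 (0.997), Car10 (0.997) and Tcl1b2 (0.997). The libraries fall into 4 groups and 2 stages, so these values are a description of patterns shared across groups and carry no test. Cdo1, an enzyme gene of cysteine breakdown, averaged 539 TPM in ROSI zygotes, 640 in ICSI zygotes, 58.0 in ROSI 2-cell embryos and 120 in ICSI 2-cell embryos, the same order within the 2-cell stage as Psenen. Reep4 averaged 34.0, 35.6, 37.0 and 60.0 TPM in these groups, with the ICSI 2-cell embryos highest, as for Hes1.

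The genes lie on build GRCm38 (mm10), in the GENCODE M21 annotation, at chr16:30064384-30067796 (Hes1, plus strand), chr7:30561863-30563627 (Psenen, minus), chr1:180227004-180263438 (Psen2, minus), chr1:172066013-172082795 (Ncstn, minus), chr3:95893969-95898288 (Aph1a, plus), chr2:26457903-26516663 (Notch1, minus), chr3:98013527-98150361 (Notch2, plus), chr5:53466152-53657362 (Rbpj, plus) and chr9:70678997-70780229 (Adam10, plus). All are annotated as protein-coding, and the TPM are over their exons.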

How the data were processed

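RNA-seq of 11 mouse embryo libraries in 4 groups was analysed from TPM values deposited by the authors in 1 table of 49585 genes, in which every column sums to 1000000. Libraries were made with a stranded SMART-seq kit from total RNA, per the labels' protocols. fastp, Bowtie2, STAR 2.7.4a, featureCounts and build mm10 are named, without their order, in the submitters' processing notes. The annotation and strand setting are not given in the sources used here. Reads were recovered as TPM times the exon length of GENCODE M21 (47102 genes matched); 85.1% to 86.7% of values per library came within 0.01 of a whole number. The depth was 8.48 M to 85.9 M reads. Count models were not used.

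Those 21938 genes that reached 1 TPM in 2 or more libraries were fitted in limma 3.58.1 (R 4.3.3; eBayes with trend) on log2(TPM + 1), with 4 group means sharing 1 variance, and adjusted by Benjamini-Hochberg at 0.05 within each of 5 contrasts. On simulated data for 21938 genes, changes of log2 size 1 were recovered in 46% of cases in zygotes and 61% in 2-cell embryos. For the stage changes after ICSI and ROSI these shares were 50% and 51%. Changes of size 2 were recovered in 80%, 80%, 84% and 76%. Such shares depend on how many genes change, and in the deposited data 14933 and 14899 genes were called for the stage changes. The share of real changes that was missed was not tested. The 9 genes, the 94 pathway genes and the marker lists were chosen with earlier results of these data known. Named were the 9 genes, their paralogs, up to 4 called pathway genes per direction and contrast by size with at least 1 TPM in the higher group, and the 5 genes most correlated with Hes1 and with Psenen; 1 gene under this rule is not reported here. Promoters came from RefSeq (GRCm38.p6), where 8 of 9 genes matched and Hes1 did not. Alternatives were pseudocounts of 0.1 and 5, no filter and a 5 TPM filter, median-ratio and quantile scaling, no trend, array weights, groups fitted alone, a replicate block and leaving out each library; protein-coding rescaling and the zygote split by small RNA were added after seeing the data. Other steps used Python 3.11.15 with scipy 1.17.1, numpy 2.4.6, pandas 2.3.3 and, for figures, matplotlib 3.10.9.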

Additional observations from a re-analysis of the deposited data

How the results depend on the processing

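The count of other pathway genes called between ROSI and ICSI 2-cell embryos, 7, was 11 with median-ratio scaling, 15 with quantile normalization (4 higher, 11 lower), 13 with protein-coding rescaling (5 higher, 8 lower) and 0 when the 2-cell libraries were fitted alone, and ranged from 5 to 8 when each library was left out. The cause was not tested. The fit of 2 groups alone holds fewer samples and takes the spread from the 2-cell libraries only, without the zygotes. In zygotes the count of 0 became 1 (Efnb2) with array weights and 1 with protein-coding rescaling. The difference between stage changes went from 0 to 3 (among them Epha4 and Adam17) with protein-coding rescaling, and stayed at 0 to 0 without each library. Leaving out each library gave 52 to 56 calls for the stage change after ICSI, 52 to 58 after ROSI and 0 to 0 in zygotes. Of the 9 genes, Rbpj reversed, from -0.13 to a called 0.38 in the stage change after ICSI with protein-coding rescaling; the cause was not tested. Of the other values for the 9 genes, 935 kept their side of the threshold, 45 of them with the opposite sign and called in neither fit, while 23 lost a call and 17 gained one. Notch1 had no value with the 5 TPM filter, and the fit of groups alone gives none for the difference between stage changes.

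The labels do not say that replicate numbers pair libraries. With the replicate number as a block, the counts were 0 in zygotes, 6 between 2-cell groups, 54 and 58 for the stage changes after ICSI and ROSI, and 0 for their difference. Deviations of same-numbered libraries correlated at 0.215 to 0.330 in zygotes (2 pairs, 4 of 4 libraries closest to their own number). The 2 ROSI zygote libraries have mirrored deviations from their mean, so these 2 pairs are not independent. ROSI zygote library 2 was nearly as close to ICSI zygote library 3 (0.206) as to ICSI zygote library 2 (0.215). In 2-cell embryos same-numbered libraries correlated at -0.01 to 0.02 (3 pairs, 2 of 6). Over the 13944 genes tested in both fits, protein-coding rescaling raised the median stage difference by 0.42 after ICSI and 0.39 after ROSI. Over all genes tested, quantile normalization moved the median by -0.22 after ROSI. Precision is limited by 2 ROSI zygote libraries and, for Notch1, by 38 reads in the shallowest library.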
